A study of Arabidopsis thaliana with 12 samples.

Results

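Plants make chlorophyll, haem and the bilin chromophore of the phytochromes from the same precursor, and the RNA of 31 genes of that tetrapyrrole pathway was followed in Arabidopsis thaliana seedlings. The genes were taken by locus identifier from a fixed list of enzymes and their direct regulators, out of 32833 genes in the deposited tables. The protochlorophyllide oxidoreductases, which carry out the light-requiring step of chlorophyll synthesis, were left out of that list. The study asked how seedlings with and without cryptochrome 1, a blue light receptor, change their RNA when blue light first reaches them. Seedlings of 10 days were either cry1, a mutant in the CRY1 gene whose allele the labels do not give, or wild type (WT). They were raised in darkness and taken in 4 groups of 3 libraries. The cry1 blue group and the WT blue group had been lit for 1 h (blue, 40 µmol m-2 s-1, without a break), and the cry1 dark group and the WT dark group had none. Whole seedlings were sampled, so fewer cells of a type and less RNA per cell cannot be told apart.

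The pathway begins in the plastid with 5-aminolevulinate (ALA), made from glutamate bound to its transfer RNA, and runs through a common trunk to protoporphyrin. There it forks: magnesium chelatase opens the branch to chlorophyll, and ferrochelatase opens the branch to haem, which haem oxygenases and a bilin reductase turn into the phytochrome chromophore. Seedlings in the dark stop at protochlorophyllide, because the next enzyme needs light, and flux into the pathway is known to be held back at ALA formation, since free intermediates are harmful once light arrives.

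RNA levels are given in TPM, a relative abundance corrected for transcript length and scaled to the total of the library. Differences are log2 fold changes of TPM + 1 with their SE, blue over dark or cry1 over WT. They come from limma, fitted to the 20314 genes with at least 1 TPM in at least 3 libraries, and a difference is called where the Benjamini-Hochberg adjusted p over all those genes is under 0.05. Of the 31 genes, 29 were tested. HO3 and HO4 stayed under 1 TPM in all 12 libraries. Libraries of a group correlated at 0.955 to 0.977 over the log2 values, and libraries of different groups at 0.822 to 0.956. CRY1 itself was listed at 0, 0.62 and 1.12 TPM in cry1 blue and at 0.92, 1.71 and 0.31 TPM in cry1 dark, against 49.97, 23.8 and 33.0 TPM in WT blue and 59.6, 56.3 and 59.9 TPM in WT dark. Over all tested genes the median log2 difference was not 0 in several contrasts. It was -0.27 for light in WT, -0.06 for light in cry1, -0.02 for cry1 against WT in blue light, -0.29 for cry1 against WT in the dark and 0.26 for the light response of cry1 minus that of WT. With a TMM-type scaling, which centres the libraries on each other, these medians lay between -0.04 and 0.01.

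**Figure D1:**
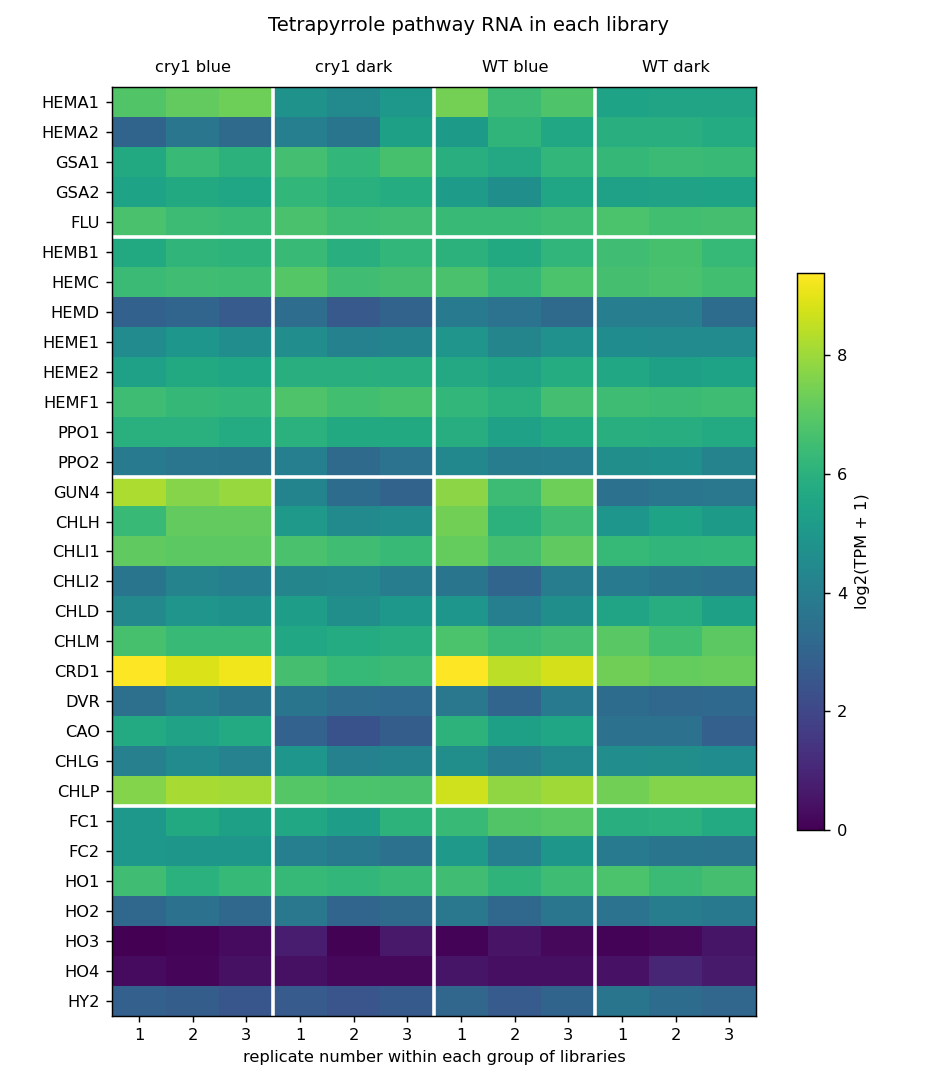
RNA level of the 31 genes (rows, in pathway order, with white lines between ALA synthesis, common trunk, chlorophyll branch, and haem and bilin branch) in each of the 12 libraries (columns), as log2(TPM + 1) on a colour scale. GUN4, CRD1 and CAO are brighter in the blue libraries of both genotypes, HEMA2 is darkest in cry1 blue, and HO3 and HO4 are under 1 TPM throughout.

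Blue light for 1 h raised the RNA of a subset of the pathway in both genotypes. That subset held a gene of ALA formation, genes along the chlorophyll branch and a ferrochelatase. In cry1, 9 of the 31 genes rose and 0 fell, with 9.19% of all tested genes called higher and 5.73% called lower. In WT, 9 rose and 2 fell, with 9.73% of all tested genes called higher and 25.3% called lower. The sets of 9 had 8 genes in common: HEMA1, GUN4, CHLH, CHLI1, CRD1, CAO, CHLP and FC2. The log2 differences of these contrasts share no libraries, but their p-values share a variance estimate from all 12 libraries. The cry1 call of CHLI1 was lost when any 1 WT dark library was left out. It was also lost in a fit of the contrast's own groups alone (limma adjusted p = 0.07). CHLM was called higher in cry1 and not in WT, and FC1 was called higher in WT and not in cry1. Within the chlorophyll branch 7 of 11 genes rose in cry1 and 6 of 11 rose in WT, and the branch had a median log2 difference of 0.70 in cry1 and 0.63 in WT. In the common trunk 0 of 8 genes rose in either genotype (TMM-type scaling called 1 in cry1 and 2 in WT, and quantile normalization 1 in WT), and the trunk's median was -0.15 in cry1 and -0.18 in WT. The median of the trunk in WT became 0.14 with TMM-type scaling and 0.01 with quantile normalization. TMM-type scaling called 12 of the 31 genes higher and 1 lower with light in WT, where it called 3615 of all 20292 genes tested higher and 3334 lower.

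**Figure D2:**
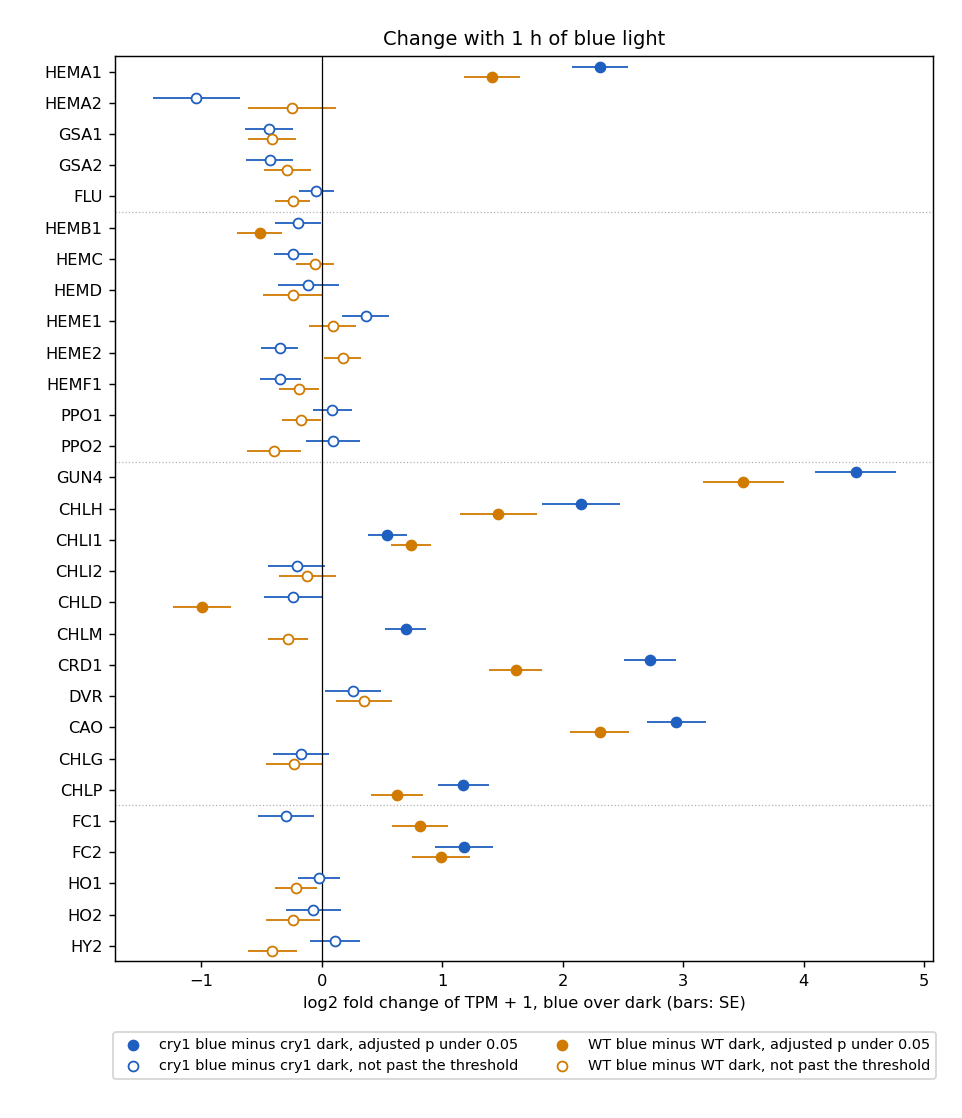
Log2 fold change of TPM + 1 with 1 h of blue light for the 29 tested genes, in pathway order from top to bottom, for cry1 (blue symbols) and WT (orange symbols). Bars are SE, filled symbols have a limma adjusted p under 0.05, and dotted lines separate the 4 sections of the pathway. HEMA1, GUN4, CHLH, CRD1 and CAO lie to the right of 1 in both genotypes, and the common trunk lies between -0.51 and 0.37.

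The promoters of 6 genes are shown because they cover both members of 2 pairs of enzymes whose RNA behaved differently, HEMA1 with HEMA2 and FC2 with FC1, and the chlorophyll genes CRD1 and CAO. The stretches were read from the RefSeq genome TAIR10.1 and end at the base before the annotated gene start. They are 180 bases long except that of FC2, which is 25 bases because an exon of another gene lies beyond it. HEMA1 is shown from chr1:21626403-21626582 (minus strand), HEMA2 from chr1:3239555-3239734 (minus), CRD1 from chr3:21076325-21076504 (plus), CAO from chr1:16851272-16851451 (minus), FC2 from chr2:12954149-12954173 (minus) and FC1 from chr5:9096271-9096450 (plus). Capitals mark exact matches, on either strand, to the motifs named after the sequences.
HEMA1: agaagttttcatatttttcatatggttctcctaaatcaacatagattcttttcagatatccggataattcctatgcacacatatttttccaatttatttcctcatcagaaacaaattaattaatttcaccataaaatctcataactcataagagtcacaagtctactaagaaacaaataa
HEMA2: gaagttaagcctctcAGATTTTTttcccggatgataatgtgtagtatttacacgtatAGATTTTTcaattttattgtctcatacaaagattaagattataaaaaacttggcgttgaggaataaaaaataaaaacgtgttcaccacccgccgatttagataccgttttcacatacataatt
CRD1: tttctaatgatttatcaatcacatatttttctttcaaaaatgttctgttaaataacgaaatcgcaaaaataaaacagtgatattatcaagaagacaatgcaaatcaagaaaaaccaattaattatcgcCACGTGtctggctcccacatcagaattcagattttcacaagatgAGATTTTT
CAO: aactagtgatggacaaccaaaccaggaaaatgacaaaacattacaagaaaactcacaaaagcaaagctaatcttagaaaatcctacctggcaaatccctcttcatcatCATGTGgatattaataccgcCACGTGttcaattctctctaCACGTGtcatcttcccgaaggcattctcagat
FC2: aactgtgtggaCACGTGtggttctc
FC1: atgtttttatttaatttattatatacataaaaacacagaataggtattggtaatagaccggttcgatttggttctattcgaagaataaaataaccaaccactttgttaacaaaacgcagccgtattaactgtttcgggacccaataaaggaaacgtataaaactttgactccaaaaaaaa

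From 250 bases before to 50 after the gene start, 6 motifs were searched on both strands: the G-box CACGTG, the PBE-box CACATG, the I-box core GATAAG, the GLK motif CCAATC, the evening element AAAATATCT and the CCA1 site AAAAATCT. The G-box is a known binding sequence of light-response factors such as HY5 and the PIF proteins. It was present in 3 of the 8 genes that rose in both genotypes, in 2 of the other 23 genes, and in 7.68% of 27443 promoters of the genome. CAO held it at 52 and 32 bases before the start, CRD1 at 52 bases before and FC2 at 14 bases before. The PBE-box matched 1 of the 8 and 4 of the other 23 (12.9% of all promoters), the I-box core 3 and 3 (14.6%), the GLK motif 2 and 2 (12.3%), and the CCA1 site 3 and 4 (7.88%). The evening element matched 0 of the 31 genes (2.82% of all promoters). HEMA2 held 2 CCA1 sites on the reverse strand, while the windows of HEMA1 and FC1 held none of the 6 motifs. No match overlapped another in these windows. The searched windows were not cut at exons of other genes, and such exons reach the gene starts of GUN4 and HEME1. GUN4 held matches to the I-box core, the GLK motif and the CCA1 site. A match describes letters only.

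At the head of the pathway the 2 glutamyl-tRNA reductases of the list differed in which contrasts called them. HEMA1 was called with light in both genotypes and in the dark between genotypes, and HEMA2 was called between genotypes in blue light and in the dark. HEMA1 (AT1G58290) and HEMA2 (AT1G09940) both make the activated aldehyde from which ALA forms; HEMA1 is the form linked to greening, and HEMA2 is known from roots and other tissue that does not green. HEMA1 stood at 114, 139.5 and 158 TPM in cry1 blue, against 27.6, 21.5 and 31.5 TPM in cry1 dark. It stood at 172, 85.0 and 109 TPM in WT blue, against 42.5, 43.2 and 44.2 TPM in WT dark. Every blue library lay above every dark library of either genotype. The light response was 2.31 ± 0.23 in cry1 (limma adjusted p = 1.68e-05) and 1.41 ± 0.23 in WT (limma adjusted p = 0.00066). The difference between these responses, 0.90 ± 0.33, was not called (limma adjusted p = 0.096).

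HEMA2 RNA was lower in cry1. It stood at 7.19, 11.8 and 8.4 TPM in cry1 blue and at 15.7, 11.6 and 39.6 TPM in cry1 dark. In WT blue it stood at 34.0, 68.9 and 48.3 TPM, and in WT dark at 58.2, 60.2 and 54.1 TPM. The cry1 libraries lay below the WT libraries of the same light, and replicate 3 was the highest of the cry1 dark libraries. HEMA2 fell in cry1 relative to WT by 2.31 ± 0.36 in blue light (limma adjusted p = 0.00069) and by 1.52 ± 0.36 in the dark (limma adjusted p = 0.0095). Its difference with light was -1.04 ± 0.36 in cry1 (limma adjusted p = 0.075) and -0.24 ± 0.36 in WT (limma adjusted p = 0.63). The cry1 blue and cry1 dark libraries overlapped, with 11.8 TPM in blue replicate 2 and 11.6 TPM in dark replicate 2. Without cry1 dark replicate 2 the difference in cry1 was -1.39 and was called (limma adjusted p = 0.021). That fit kept cry1 dark replicate 3, at 39.6 TPM, and no other alternative setting called the difference. The ratio of HEMA1 to HEMA2, both in TPM, averaged 15.5 ± 3.47 in cry1 blue and 1.47 ± 0.59 in cry1 dark, against 2.85 ± 1.98 in WT blue and 0.755 ± 0.054 in WT dark (SD, n = 3 libraries each).

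Glutamate-1-semialdehyde aminotransferase, which forms ALA itself, is encoded by GSA1 (AT5G63570) and GSA2 (AT3G48730). GSA1 stood at 51.7, 80.7 and 64.6 TPM in cry1 blue and at 94.0, 72.7 and 98.7 TPM in cry1 dark. In WT blue it stood at 57.8, 49.2 and 74.0 TPM, and in WT dark at 75.8, 84.3 and 79.0 TPM. The cry1 groups overlapped, while the WT blue libraries lay below the WT dark libraries. GSA2 stood at 43.0, 51.5 and 46.3 TPM in cry1 blue and at 74.1, 61.95 and 55.6 TPM in cry1 dark. It stood at 34.5, 24.7 and 44.3 TPM in WT blue and at 40.2, 41.2 and 42.0 TPM in WT dark. Neither gene was called with light in either genotype: the log2 differences were between -0.43 and -0.28. GSA2 rose in cry1 against WT in the dark by 0.61 ± 0.20 (limma adjusted p = 0.033), with all 3 cry1 libraries above the WT libraries. That call was lost with a replicate block and when any 1 WT dark library, or cry1 dark replicate 1 or 2, was left out. In blue light the GSA2 difference was 0.47 ± 0.20 (limma adjusted p = 0.1). It was called there with TMM-type scaling (0.47, limma adjusted p = 0.043) and quantile normalization (0.58, limma adjusted p = 0.02). Leaving out WT blue replicate 3 also gave a call (0.66, limma adjusted p = 0.028). FLU (AT3G14110), a plastid protein that holds back glutamyl-tRNA reductase in the dark, ranged between 79.5 and 105 TPM over the 12 libraries and was not called in any contrast. Its light response was -0.05 ± 0.14 in cry1 and -0.24 ± 0.14 in WT.

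**Figure D3:**
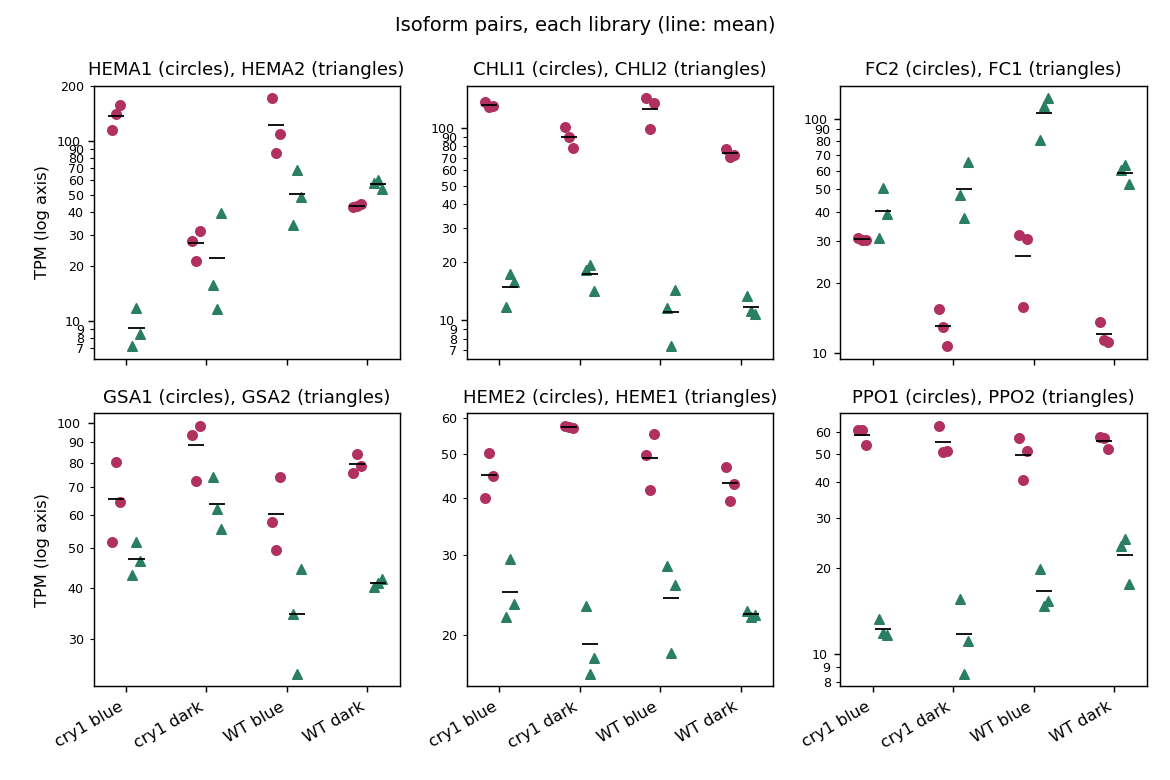
TPM on a log axis for 6 pairs of genes that encode the same enzyme activity, in the 3 libraries of each group, with a line at each mean. Circles mark the first gene named above a panel and triangles the second. HEMA1 lies above HEMA2 in all blue libraries and below it in WT dark, and FC1 lies above the other groups in WT blue.

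In the trunk from ALA to protoporphyrin 1 of 8 genes was called with light, HEMB1, lower in WT. TMM-type scaling lost that call (-0.19, limma adjusted p = 0.26) and called HEME1 and HEME2 higher instead. ALA dehydratase HEMB1 (AT1G69740), which joins ALA molecules into the first ring, averaged 62.03 ± 10.2 TPM in cry1 blue and 71.1 ± 10.4 TPM in cry1 dark, against 62.01 ± 10.2 TPM in WT blue and 88.6 ± 11.9 TPM in WT dark (SD, n = 3 each). It fell with light in WT by 0.51 ± 0.19 (limma adjusted p = 0.049), and 14 of 20 alternative settings (other scalings, filters and models, and each library left out in turn) lost the call. Porphobilinogen deaminase HEMC (AT5G08280) stayed between 75.7 and 119 TPM, and coproporphyrinogen oxidase HEMF1 (AT1G03475) between 61.4 and 109.8 TPM, with no call. The cry1 dark libraries of HEMF1 lay above the WT dark libraries, and that difference was called with TMM-type scaling (0.50, limma adjusted p = 0.041) and quantile normalization (0.44, limma adjusted p = 0.037). TMM-type scaling also called HEMC higher in cry1 in the dark (0.37, limma adjusted p = 0.035). Uroporphyrinogen synthase HEMD (AT2G26540) was the least abundant of the trunk, at 6.44 ± 0.88 TPM in cry1 blue and 7.16 ± 2.08 TPM in cry1 dark, against 10.9 ± 2.38 TPM in WT blue and 13.2 ± 3.54 TPM in WT dark. HEMD fell in cry1 against WT in the dark by 0.80 ± 0.25 (limma adjusted p = 0.032), a call that both scalings removed. In blue light the difference was -0.67 ± 0.25 (limma adjusted p = 0.07), and it was called with TMM-type scaling (-0.67, limma adjusted p = 0.021) and quantile normalization (-0.58, limma adjusted p = 0.035).

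Uroporphyrinogen decarboxylase is encoded by HEME1 (AT3G14930) and HEME2 (AT2G40490). HEME1 stood at 21.9, 29.4 and 23.5 TPM in cry1 blue, 23.2, 16.5 and 17.9 TPM in cry1 dark, 28.4, 18.3 and 25.9 TPM in WT blue, and 22.7, 21.97 and 22.1 TPM in WT dark. HEME2 stood at 40.0, 50.5 and 44.8 TPM in cry1 blue, 57.8, 57.5 and 57.1 TPM in cry1 dark, 49.8, 41.8 and 55.5 TPM in WT blue, and 46.9, 39.5 and 43.1 TPM in WT dark. The cry1 dark libraries of HEME2 lay above all others, and the groups of HEME1 overlapped. The difference of HEME2 in cry1 against WT in the dark was 0.41 ± 0.15 (limma adjusted p = 0.062), and it was called with TMM-type scaling (0.70, limma adjusted p = 0.0068) and with quantile normalization (0.72, limma adjusted p = 0.0033). With light HEME1 was called higher with TMM-type scaling in cry1 (0.40, limma adjusted p = 0.036) and in WT (0.40, limma adjusted p = 0.023). HEME2 was called higher with light in WT with TMM-type scaling (0.49, limma adjusted p = 0.021) and quantile normalization (0.36, limma adjusted p = 0.047). Protoporphyrinogen oxidase, the last trunk enzyme, has a plastid form PPO1 (AT4G01690) and a second form PPO2 (AT5G14220). PPO1 stood at 61.0, 61.0 and 53.9 TPM in cry1 blue, 63.0, 51.0 and 51.6 TPM in cry1 dark, 57.1, 40.7 and 51.5 TPM in WT blue, and 57.4, 57.0 and 52.2 TPM in WT dark. PPO2 stood at 13.3, 11.8 and 11.6 TPM in cry1 blue, 15.6, 8.50 and 11.1 TPM in cry1 dark, 19.8, 14.7 and 15.3 TPM in WT blue, and 24.0, 25.4 and 17.5 TPM in WT dark. The PPO1 groups overlapped, whereas all cry1 values of PPO2 lay below the WT values of the same light. PPO2 fell in cry1 against WT in the dark by 0.89 ± 0.22 (limma adjusted p = 0.011), a call lost without cry1 dark replicate 2 (limma adjusted p = 0.051) or WT dark replicate 2 (limma adjusted p = 0.052). In blue light the difference was -0.41 ± 0.22 (limma adjusted p = 0.21).

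The chlorophyll branch held the 3 genes with the largest rise in light, GUN4, CAO and CRD1, in both genotypes. Its first enzyme, magnesium chelatase, inserts magnesium into protoporphyrin through the subunits CHLH, CHLI and CHLD, and GUN4 (AT3G59400) binds the porphyrin and stimulates the reaction. GUN4 stood at 299, 204 and 244 TPM in cry1 blue, against 17.8, 9.06 and 6.97 TPM in cry1 dark. It stood at 217, 84.5 and 157 TPM in WT blue, against 10.8, 11.9 and 12.5 TPM in WT dark. The lowest blue library was several times the highest dark library. GUN4 rose with light by 4.43 ± 0.34 in cry1 (limma adjusted p = 1.92e-06) and by 3.50 ± 0.34 in WT (limma adjusted p = 1.19e-05). These responses differed by 0.93 ± 0.47 (limma adjusted p = 0.22). In blue light cry1 differed from WT by 0.79 ± 0.34 (limma adjusted p = 0.11). That difference was called with quantile normalization (0.90, limma adjusted p = 0.049) and without WT blue replicate 1 (1.09, limma adjusted p = 0.034). Of the 50-base words of GUN4's exons, 71.9% also lie, on the opposite strand, in AT3G59410, and the strand setting of the counting is not given. AT3G59410 ranged between 1.90 and 11.9 TPM in these libraries, and without strand the reads of these genes cannot be told apart.

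CHLH (AT5G13630), the porphyrin-binding subunit, stood at 78.5, 139 and 141 TPM in cry1 blue, against 33.0, 20.8 and 23.5 TPM in cry1 dark. It stood at 167, 64.7 and 90.3 TPM in WT blue, against 29.8, 43.1 and 34.0 TPM in WT dark. Blue and dark libraries did not overlap. CHLH rose with light by 2.15 ± 0.32 in cry1 (limma adjusted p = 0.00047) and by 1.47 ± 0.32 in WT (limma adjusted p = 0.0043). CHLI1 (AT4G18480), the main ATPase subunit, stood at 137, 128 and 129.7 TPM in cry1 blue, 101.5, 89.7 and 78.8 TPM in cry1 dark, 143, 98.04 and 135 TPM in WT blue, and 77.7, 70.8 and 72.5 TPM in WT dark. It rose by 0.55 ± 0.16 in cry1 (limma adjusted p = 0.039) and by 0.74 ± 0.16 in WT (limma adjusted p = 0.0044), and 10 of 20 alternative settings lost the call in cry1. CHLI2 (AT5G45930), its minor isoform, stood at 11.6, 17.4 and 15.7 TPM in cry1 blue, 18.3, 19.3 and 14.2 TPM in cry1 dark, 11.5, 7.28 and 14.3 TPM in WT blue, and 13.2, 11.2 and 10.7 TPM in WT dark. Those groups overlapped with light, and CHLI2 was not called in any contrast. Its cry1 dark libraries lay above the WT dark libraries, by 0.51 ± 0.24 (limma adjusted p = 0.12), and both TMM-type scaling (0.79, limma adjusted p = 0.02) and quantile normalization (0.92, limma adjusted p = 0.0098) called that difference. CHLI1 was 9.12 ± 2.32 times CHLI2 in cry1 blue and 5.26 ± 0.53 times in cry1 dark, against 11.8 ± 2.10 times in WT blue and 6.31 ± 0.45 times in WT dark (SD, n = 3).

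CHLD (AT1G08520), the third subunit, was called lower with light in WT. It averaged 25.5 ± 4.37 TPM in cry1 blue and 30.3 ± 5.97 TPM in cry1 dark, against 23.3 ± 7.14 TPM in WT blue and 46.4 ± 9.25 TPM in WT dark. CHLD fell with light in WT by 0.99 ± 0.24 (limma adjusted p = 0.008) and kept that call under all 20 alternative settings, with log2 differences between -1.19 and -0.67. In cry1 the difference was -0.24 ± 0.24 (limma adjusted p = 0.58), and the difference between the genotypes' responses was 0.76 ± 0.34 (limma adjusted p = 0.17). The subunits of magnesium chelatase thus did not change together in WT, where CHLH and CHLI1 rose and CHLD fell.

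**Figure D4:**
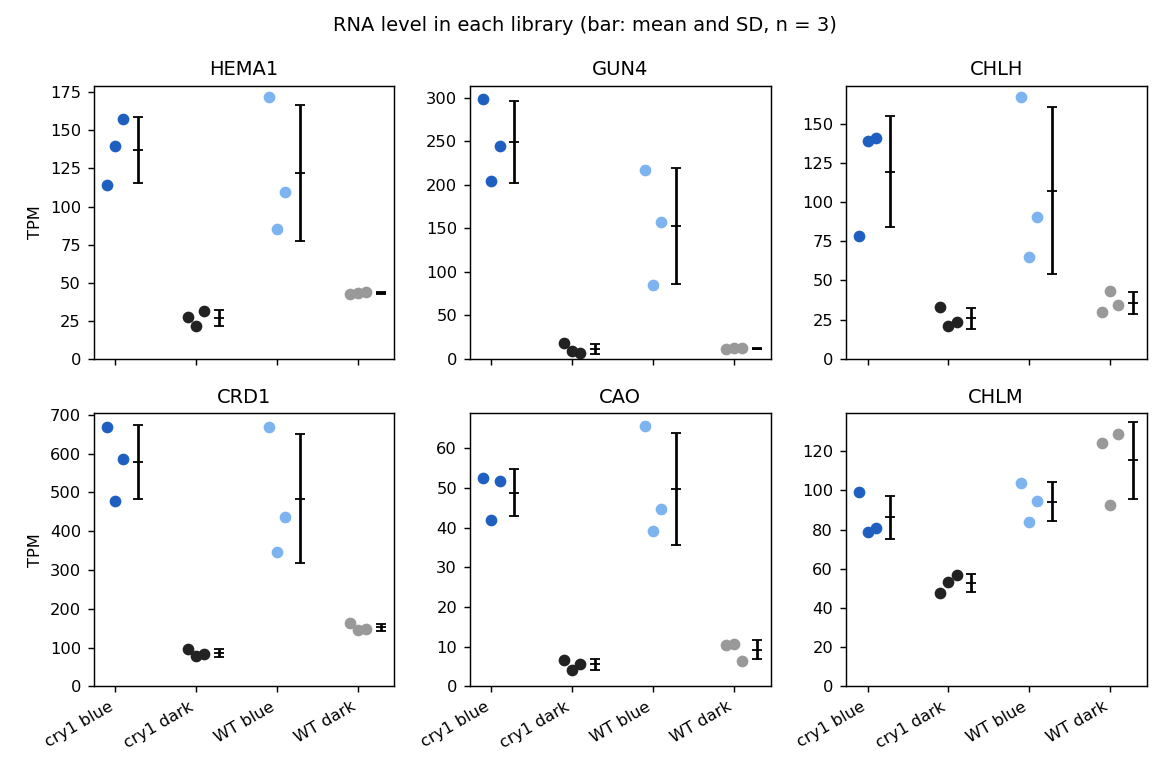
TPM of 6 genes in each of the 3 libraries of the 4 groups (points), with the mean and SD beside them. HEMA1, GUN4, CHLH, CRD1 and CAO are above all dark libraries in each blue library, while CHLM is low only in cry1 dark, at 47.6 to 56.9 TPM.

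CHLM (AT4G25080), the methyltransferase that follows magnesium insertion, stood at 99.0, 78.7 and 81.0 TPM in cry1 blue, against 47.6, 53.5 and 56.9 TPM in cry1 dark. It stood at 104, 83.9 and 94.8 TPM in WT blue, against 124, 92.7 and 129 TPM in WT dark. The cry1 dark libraries lay below all others, and the WT groups overlapped. CHLM rose with light in cry1 by 0.70 ± 0.17 (limma adjusted p = 0.013), a call lost without cry1 blue replicate 1 (0.59, limma adjusted p = 0.057), and its difference in WT was -0.28 ± 0.17 (limma adjusted p = 0.21). In the dark it fell in cry1 against WT by 1.10 ± 0.17 (limma adjusted p = 0.0011), and in blue light the genotypes differed by -0.13 ± 0.17 (limma adjusted p = 0.62). The light responses of the genotypes differed by 0.98 ± 0.24 (limma adjusted p = 0.026), a call that TMM-type scaling lost (0.69, limma adjusted p = 0.15). Leaving out cry1 blue replicate 3, either of WT blue replicates 2 and 3, or either of WT dark replicates 1 and 3 also lost it.

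CRD1 (AT3G56940), a subunit of the cyclase that closes the fifth ring, was the most abundant RNA of the list in blue light. It stood at 669, 478 and 587 TPM in cry1 blue, against 97.7, 77.7 and 82.9 TPM in cry1 dark. In WT blue it stood at 668, 346 and 436 TPM, against 163, 144 and 148 TPM in WT dark. Blue and dark did not overlap, and the cry1 dark libraries were below the WT dark libraries. CRD1 rose with light by 2.73 ± 0.22 in cry1 (limma adjusted p = 2.79e-06) and by 1.61 ± 0.22 in WT (limma adjusted p = 0.00016). It fell in cry1 against WT in the dark by 0.82 ± 0.22 (limma adjusted p = 0.015), and in blue light the difference was 0.30 ± 0.22 (limma adjusted p = 0.35). The dark call was lost with both scalings, and also when cry1 dark replicate 2 or WT dark replicate 1 was left out. The difference of the light responses, 1.11 ± 0.31 (limma adjusted p = 0.04), lost its call in 13 of 19 alternative settings, among them both scalings.

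Chlorophyllide a oxygenase CAO (AT1G44446), which makes the chlorophyll b form, carries a pair of G-boxes in the promoter printed above. It stood at 52.6, 42.0 and 51.8 TPM in cry1 blue, against 6.76, 4.09 and 5.76 TPM in cry1 dark. It stood at 65.7, 39.0 and 44.6 TPM in WT blue, against 10.5, 10.7 and 6.42 TPM in WT dark. The blue libraries of both genotypes lay in the same range, and both dark groups lay far below. CAO rose by 2.94 ± 0.25 in cry1 (limma adjusted p = 4.03e-06) and by 2.31 ± 0.25 in WT (limma adjusted p = 2.76e-05). Between the genotypes in blue light the difference was 0.00 ± 0.25.

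CHLP (AT1G74470), the geranylgeranyl reductase that makes the phytyl tail of chlorophyll, stood at 200.4, 282 and 273 TPM in cry1 blue, against 119, 106 and 104 TPM in cry1 dark. It stood at 417, 226 and 263 TPM in WT blue, against 168, 199 and 199.9 TPM in WT dark. CHLP rose by 1.177 ± 0.21 in cry1 (limma adjusted p = 0.0021) and by 0.63 ± 0.21 in WT (limma adjusted p = 0.038). Blue libraries lay above dark ones in both genotypes, but 9 of 20 alternative settings lost the WT call, and without WT blue replicate 1 the log2 difference was 0.37. CHLP fell in cry1 against WT in the dark by 0.78 ± 0.21 (limma adjusted p = 0.018), and neither scaling kept that call. DVR (AT5G18660), the divinyl reductase, averaged 12.1 ± 2.26 TPM in cry1 blue and 9.88 ± 1.56 TPM in cry1 dark, against 11.2 ± 3.50 TPM in WT blue and 8.31 ± 0.58 TPM in WT dark, with no call. It was called higher with light in WT with TMM-type scaling (0.64, limma adjusted p = 0.014) and quantile normalization (0.66, limma adjusted p = 0.013). Chlorophyll synthase CHLG (AT3G51820), which joins the tail to the ring, ranged between 15.1 and 29.9 TPM and was not called in any contrast.

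At the other fork the 2 ferrochelatases, which insert iron to make haem, were both called higher with light in WT. FC2 was also called higher in cry1, and FC1 was called lower in cry1 against WT in blue light. FC2 (AT2G30390) is the form tied to photosynthetic tissue, and FC1 (AT5G26030) is known to be active in all tissues including roots. FC2 stood at 30.9, 30.3 and 30.5 TPM in cry1 blue, against 15.4, 12.97 and 10.7 TPM in cry1 dark. It stood at 31.8, 15.7 and 30.6 TPM in WT blue, against 13.6, 11.4 and 11.1 TPM in WT dark. Blue lay above dark in both genotypes, with WT blue replicate 2 close to the dark level. FC2 rose by 1.184 ± 0.24 in cry1 (limma adjusted p = 0.0042) and by 0.99 ± 0.24 in WT (limma adjusted p = 0.0072). The genotypes differed by 0.29 ± 0.24 in blue light and by 0.10 ± 0.24 in the dark, neither of them called.

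FC1 RNA stood at 31.1, 50.9 and 39.4 TPM in cry1 blue and at 47.2, 37.7 and 65.3 TPM in cry1 dark. In WT blue it stood at 80.8, 114 and 122 TPM, and in WT dark at 60.3, 63.5 and 52.8 TPM. The WT blue libraries lay above all others, while the cry1 groups overlapped. FC1 rose with light in WT by 0.81 ± 0.23 (limma adjusted p = 0.017), a call lost on removal of WT blue replicate 2, WT blue replicate 3 or WT dark replicate 3. In cry1 the difference was -0.29 ± 0.23 (limma adjusted p = 0.46). In blue light FC1 fell in cry1 against WT by 1.37 ± 0.23 (limma adjusted p = 0.0011), and in the dark the difference was -0.26 ± 0.23 (limma adjusted p = 0.42). The difference of the light responses was -1.11 ± 0.33 and missed the threshold (limma adjusted p = 0.052). It was called with TMM-type scaling (-1.39, limma adjusted p = 0.025), with quantile normalization (-1.20, limma adjusted p = 0.024), with a filter at a mean of 5 TPM, and without WT blue replicate 1, cry1 dark replicate 2 or cry1 blue replicate 2. The ratio of FC2 to FC1 averaged 0.788 ± 0.199 in cry1 blue and 0.278 ± 0.0996 in cry1 dark, against 0.261 ± 0.128 in WT blue and 0.205 ± 0.0231 in WT dark (SD, n = 3). It was thus highest in cry1 blue, where each library lay above each library of the other groups.

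Haem oxygenases open the haem ring, and HY2 (AT3G09150) reduces the product to phytochromobilin, the chromophore of the phytochromes. HO1 (AT2G26670), the main form, stood at 91.2, 62.3 and 76.2 TPM in cry1 blue, 76.5, 73.6 and 80.3 TPM in cry1 dark, 90.9, 67.5 and 88.8 TPM in WT blue, and 104, 82.9 and 98.1 TPM in WT dark. HO2 (AT2G26550) stood at 8.05, 10.3 and 8.03 TPM in cry1 blue, 12.5, 7.35 and 8.45 TPM in cry1 dark, 12.4, 8.12 and 12 TPM in WT blue, and 11.1, 14.5 and 12.9 TPM in WT dark. Neither was called in any contrast. HO3 (AT1G69720) was listed at 0 to 0.65 TPM and HO4 (AT1G58300) at 0.12 to 0.99 TPM, so 1 of the 4 haem oxygenase genes carried most of the RNA of this family. HO3 and HEMB1 lie 3039 bases apart on the same strand, with 1 gene between them, AT1G69730, which overlaps HO3 on the other strand. HO4 lies 1355 bases from HEMA1 and HO2 786 bases from HEMD, each on the same strand with 0 genes between them. HY2 averaged 5.61 ± 0.87 TPM in cry1 blue and 5.09 ± 0.48 TPM in cry1 dark, against 6.75 ± 1.12 TPM in WT blue and 9.36 ± 2.13 TPM in WT dark. HY2 fell in cry1 against WT in the dark by 0.75 ± 0.21 (limma adjusted p = 0.018), a call lost with quantile normalization and on removal of cry1 dark replicate 2 or of WT dark replicate 1.

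Between the genotypes 2 of the 31 genes were called in blue light and 9 in the dark. In blue light 0 of the 31 genes were higher and 2 lower in cry1, HEMA2 and FC1, with 10.9% of all tested genes called higher and 14.3% called lower. Both calls held in all 20 alternative settings. TMM-type scaling called 1 gene higher and 3 lower there, and quantile normalization called 3 higher and 3 lower. In the dark, 1 gene was higher in cry1, GSA2, and 8 were lower: HEMA1, HEMA2, HEMD, PPO2, CHLM, CRD1, CHLP and HY2. Of all tested genes 5.33% were called higher and 23.5% lower in that contrast, so the share of the list called lower was near that of the genome. HEMA1 fell there by 0.69 ± 0.23 (limma adjusted p = 0.041), and 13 of 20 alternative settings lost that call. TMM-type scaling called 6 genes higher and 4 lower in the dark, and quantile normalization 6 higher and 3 lower, and the balance over all genes moved in the same way. Over all genes tested 2308 were higher and 2763 lower with TMM-type scaling, and 2742 higher and 2573 lower with quantile normalization, against 1082 higher and 4767 lower without rescaling. With both scalings CHLI1, CHLI2, HEME2 and HEMF1 joined GSA2 among the genes higher in cry1 in the dark. HEMA2 and CHLM were lower in cry1 in the dark under all 20 alternative settings.

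**Figure D5:**
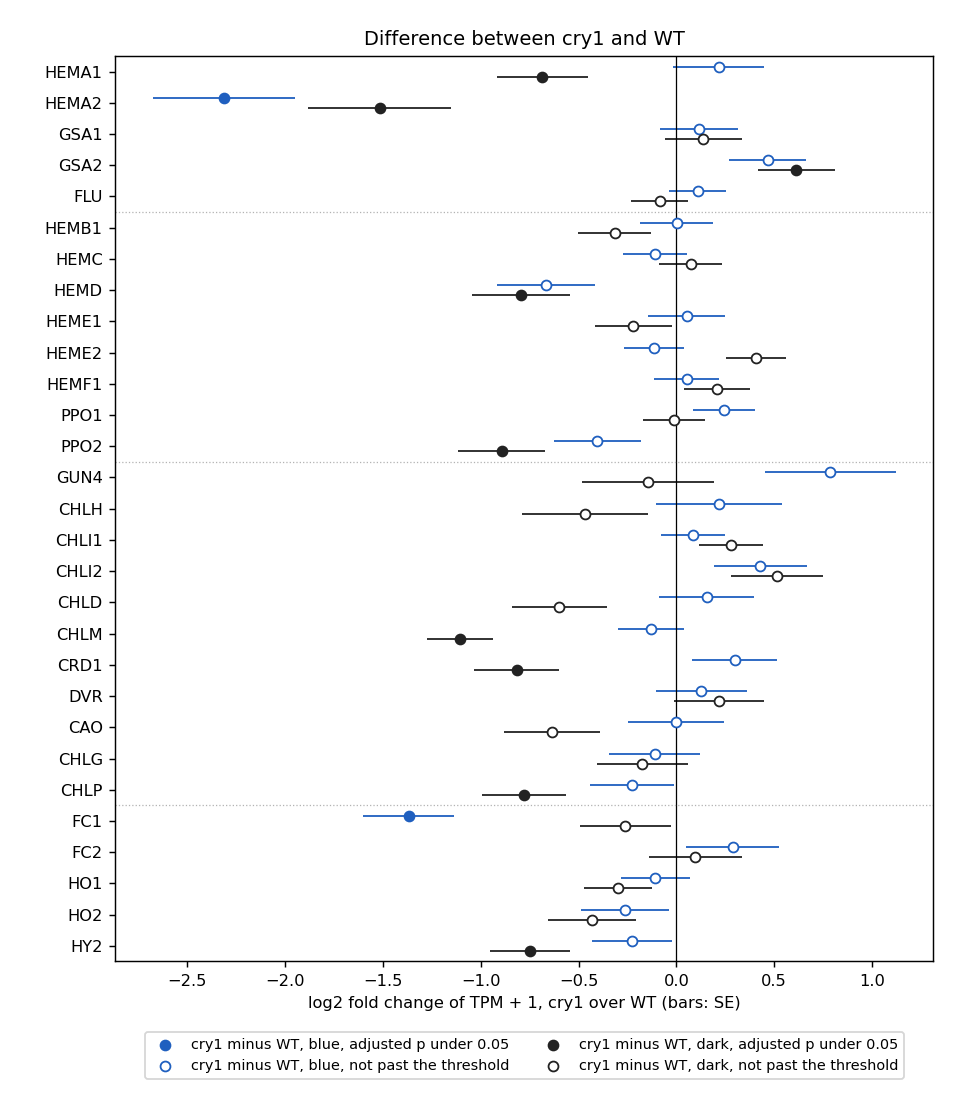
Log2 fold change of TPM + 1, cry1 over WT, in blue light (blue symbols) and in the dark (black symbols) for the 29 tested genes in pathway order. Bars are SE, and filled symbols have a limma adjusted p under 0.05. In blue light HEMA2 and FC1 are filled, both left of 0. In the dark 8 filled genes lie left of 0 and GSA2 lies right of it, and both scalings move that balance to 6 higher, with 4 lower for TMM-type scaling and 3 lower for quantile normalization.

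The responses to light differed between genotypes for 2 genes, CHLM and CRD1, both larger in cry1. In the same contrast 6.84% of all tested genes were called higher and 2.33% called lower. The share of the list called higher was thus near that of the genome. TMM-type scaling called 0 higher and 2 lower, FC1 and HEME2, and quantile normalization 1 higher and 2 lower. The chlorophyll branch summed to 1434 to 1594 TPM in cry1 blue and 430 to 520 TPM in cry1 dark, against 988 to 1859 TPM in WT blue and 673 to 683 TPM in WT dark. The blue groups overlapped, and the cry1 dark libraries lay below the WT dark libraries. WT blue replicate 2 had the lowest value of its group for each of the 8 genes that rose in both genotypes. It was also lowest for many other genes of the list, such as GSA1, HEMB1, CHLD and HO1, but not for HEMA2, HEMD or FC1. Of the 12 libraries it had the fewest genes with at least 1 TPM, 18409. TMM-type scaling divided its values by 0.82, against 1.05 and 0.97 for WT blue replicates 1 and 3. With light in WT, 9 of the 31 genes were called higher without WT blue replicate 2. FC1 lost its call there (limma adjusted p = 0.061) and DVR gained one (0.61, limma adjusted p = 0.0498).

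The genotypes also differed in genes chosen as markers of sample makeup. Those for the root were 6 root hair and root genes: EXPA7, EXPA18, COBL9, PRP3, RHS13 and IRT1. Their summed TPM was 150 to 212 in cry1 blue and 59.9 to 90.2 in cry1 dark. In WT blue it was 0.36 to 8.59, and in WT dark 11.5 to 28.2. All 6 were called higher in cry1 in blue light, and 5 of 6 in the dark. IRT1 was listed at 0 in all WT blue libraries, and EXPA7 and PRP3 in WT blue replicate 2. With light, 5 of the 6 rose in cry1 and 3 of 6 fell in WT, and all 6 were called in the difference of the light responses, the contrast that called CHLM and CRD1. HEMA2, known from roots, was lower in cry1 in both lights. FC1, also known from roots, was lower in blue light and was not called in the dark. More root tissue and more RNA of the 6 root hair and root genes per cell cannot be told apart here. The part of the makeup in the light responses, in their difference and in the differences between cry1 and WT was not tested. The summed TPM of 2 seed genes reached 16.4 in cry1 blue replicate 2 and 9.66 in cry1 dark replicate 1 and stayed under 1 in all WT libraries.

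Other genes of tetrapyrrole metabolism, 27 in number with 25 tested, were counted in the same way. With light 8 rose and 1 fell in cry1, and 5 rose and 4 fell in WT. Of all tested genes, 9.19% were called higher and 5.73% lower in cry1, and 9.73% higher and 25.3% lower in WT. UPM1, which diverts the trunk intermediate to sirohaem, fell in both. It stood at 71.5, 85.3 and 81.5 TPM in cry1 blue, against 366, 255 and 347 TPM in cry1 dark. It stood at 102, 135.5 and 84.0 TPM in WT blue, against 444, 454 and 401 TPM in WT dark. All blue libraries lay below all dark libraries, and UPM1 fell by 1.995 ± 0.19 in cry1 (limma adjusted p = 1.2e-05) and by 2.03 ± 0.19 in WT (limma adjusted p = 1.03e-05). PORC, a protochlorophyllide oxidoreductase of green tissue, rose by 1.62 ± 0.26 in cry1 (limma adjusted p = 0.00081) and by 1.71 ± 0.26 in WT (limma adjusted p = 0.00041). PORA, the dark form, rose by 1.24 ± 0.37 in cry1 (limma adjusted p = 0.036), and its difference in WT was -0.59 ± 0.37 (limma adjusted p = 0.22). The PORA responses differed by 1.84 ± 0.52 (limma adjusted p = 0.043). CLH1, a chlorophyllase, rose by 1.53 ± 0.20 in cry1 (limma adjusted p = 0.00017) and by 2.37 ± 0.20 in WT (limma adjusted p = 4.45e-06). Pheophorbide a oxygenase PAO, of the pathway of chlorophyll breakdown, fell in WT by 0.86 ± 0.22 (limma adjusted p = 0.01). In cry1 its difference was -0.05 ± 0.22 (limma adjusted p = 0.92), and the responses differed by 0.81 ± 0.31 (limma adjusted p = 0.11). PPH, of the same pathway, fell in WT by 0.61 ± 0.20 (limma adjusted p = 0.034). Its difference in cry1 was -0.43 ± 0.20 (limma adjusted p = 0.19), and the responses differed by 0.18 ± 0.29 (limma adjusted p = 0.71). Between the genotypes 2 of the 27 were higher and 2 lower in cry1 in blue light, and 0 were higher and 7 lower in the dark. Of all tested genes, 10.9% were called higher and 14.3% lower in blue light, and 5.33% higher and 23.5% lower in the dark. The share of these 27 called lower in the dark was thus near that of the genome.

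Of 12 known regulators of the pathway, 7 rose and 0 fell with light in cry1, and 7 rose and 3 fell in WT. Of all tested genes, 9.19% were called higher and 5.73% lower with light in cry1, and 9.73% higher and 25.3% lower in WT. The share of the regulators that fell in WT was thus near that of the genome. HY5, a bZIP factor that binds G-boxes, stood at 73.3, 58.0 and 63.0 TPM in cry1 blue and 3.09, 4.06 and 2.30 TPM in cry1 dark, against 184, 197 and 175 TPM in WT blue and 4.82, 3.25 and 3.98 TPM in WT dark. GLK1, a factor that drives genes of chlorophyll synthesis, stood at 252, 213 and 272 TPM in cry1 blue and 53.7, 37.5 and 34.8 TPM in cry1 dark, against 137, 56.0 and 109 TPM in WT blue and 36.1, 49.3 and 40.5 TPM in WT dark. In blue light HY5 was thus lower, and GLK1 higher, in cry1 than in WT. HY5 fell there in cry1 by 1.51 ± 0.19 (limma adjusted p = 0.00017) and GLK1 rose by 1.37 ± 0.28 (limma adjusted p = 0.0033). The list counted 1 regulator higher and 4 lower in cry1 in blue light, and 0 higher and 7 lower in the dark. The shares over all tested genes were 10.9% higher and 14.3% lower in blue light, and 5.33% higher and 23.5% lower in the dark.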

How the data were processed

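Total RNA of 12 libraries was sequenced, and each deposited table gives 1 TPM value per gene, a unit read from the values, which sum to 980965 to 996431 per library. How the authors computed TPM, with which annotation release and strand setting, is not given in the sources used here. The submitters' processing notes name the build TAIR10 and the programs Trimmomatic 0.36, HISAT2 2.2.1.0, Cufflinks, TopHat, Bowtie2 and DESeq 1.18.0, with no roles. Read depth cannot be had from TPM, and counting intervals are left out.

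From these values log2(TPM + 1) was fitted with limma 3.58.1 in R 4.3.3, with 1 mean per group, a variance trend and no block, and p-values were Benjamini-Hochberg adjusted over all 20314 tested genes in each of 5 contrasts. The pseudocount of 1 understates changes of low genes. The fit was tested on simulated data. Alternatives were TMM-type scaling, quantile normalization, no filter, a mean of at least 5 TPM, a pseudocount of 0.1, limma without trend, only the contrast's own groups, a replicate block and leaving out each library. All 31 genes are named, with values in every library for those called with a log2 difference of at least 1 and for isoform pairs. The genes, lists and motifs were chosen with earlier results of these data known. Promoters and gene positions come from the RefSeq annotation of TAIR10.1, and the deposited tables carry no coordinates. Nothing in the labels says that replicate libraries were sown or grown separately. The p-values therefore measure the spread among the sequenced samples alone, and that spread may be technical.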

Additional observations from a re-analysis of the deposited data

Results flagged for a closer look

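The response to blue light of 2 chlorophyll genes differed between the genotypes by the test of the difference itself. That test called 6.84% of all tested genes higher, and the share of the list called higher was near that of the genome. For CHLM the response in cry1 minus that in WT was 0.98 ± 0.24 on the log2 scale (limma adjusted p = 0.026), with 3 of 3 cry1 blue libraries above the cry1 dark libraries and overlapping WT groups. For CRD1 it was 1.11 ± 0.31 (limma adjusted p = 0.04), with all blue libraries above the dark libraries in both genotypes. Over the alternative settings the adjusted p lay between 0.02 and 0.15 for CHLM and between 0.0071 and 0.093 for CRD1. TMM-type scaling moved the median of all genes in this contrast from 0.26 to 0.01. With it neither CHLM (limma adjusted p = 0.15) nor CRD1 (limma adjusted p = 0.087) was called.

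Among the other pathway genes and regulators, the responses differed in the same test by 1.84 ± 0.52 for PORA (limma adjusted p = 0.043), 1.14 ± 0.29 for the chlorophyllase gene CLH2 (limma adjusted p = 0.03), 1.38 ± 0.39 for GLK1 (limma adjusted p = 0.046), 2.59 ± 0.46 for the clock gene CCA1 (limma adjusted p = 0.0082) and -1.23 ± 0.27 for HY5 (limma adjusted p = 0.018). The first 4 were larger in cry1 and HY5 was larger in WT.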

How the results depend on the processing

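With light, HEMA1, GUN4, CHLH, CRD1, CAO and FC2 kept their calls in both genotypes under all alternatives run, as did CHLI1 and CHLD in WT and CHLP in cry1. In blue light HEMA2 and FC1, and in the dark HEMA2 and CHLM, kept their calls between genotypes. The count of genes lower with light in WT became 1 with TMM-type scaling, quantile normalization, no filter, a pseudocount of 0.1 and limma without trend. For cry1 against WT in blue light the genes called higher were 1 with TMM-type scaling and 3 with quantile normalization. In the dark the higher calls were 6 with either scaling and 2 with no filter, and the lower calls were 4 with TMM-type scaling and 3 with quantile normalization. Of the light responses that differ between genotypes, the higher calls were 0 with TMM-type scaling and 1 with quantile normalization, no filter or limma without trend, and the lower calls were 2 with either scaling and 1 at a mean of at least 5 TPM.

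Leaving out 1 library at a time gave 7 to 9 genes higher and 1 to 2 lower with light in WT, and 7 to 9 higher and 0 to 1 lower in cry1. It gave 0 to 1 higher and 2 lower each time in cry1 against WT in blue light, 0 to 2 higher and 2 to 9 lower in the dark, and 0 to 3 higher and 0 to 1 lower for the difference of the light responses. The lower calls in the dark were 2 without cry1 dark replicate 2 and 4 without WT dark replicate 1 or 2. TMM-type scaling divided cry1 dark replicate 2 by 0.80, the smallest factor of the 12 libraries. It divided WT dark replicates 1 and 2 by 1.20 and 1.23, the largest factors.

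With the replicate number as a block, 1 gene was lower with light in WT and 0 were higher in cry1 in the dark. The labels do not say whether the replicate numbers pair libraries. Deviations of same-numbered libraries from their group means correlated between -0.37 and 0.31, over 0.1 in 3 of 18 pairs. Among differently numbered libraries 13 of 36 pairs were over 0.1, and 1 of 12 libraries correlated best with its own number. Shifts of whole libraries enter these unscaled deviations, so the correlations cannot decide whether libraries were paired. The cause of the changed counts was not tested. TPM is relative to each library's total and 3 libraries a group limit what small differences can be called.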

Other observations

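Genes of chlorophyll breakdown and of the pathway's regulation without values in the account of the pathway also moved with light. RCCR, which reduces the opened chlorophyll ring, rose by 1.06 ± 0.17 in cry1 (limma adjusted p = 0.00085) and by 0.63 ± 0.17 in WT (limma adjusted p = 0.014). Of the other listed genes, AT2G35260 rose by 2.54 ± 0.23 in cry1 (limma adjusted p = 8.53e-06) and by 1.87 ± 0.23 in WT (limma adjusted p = 9.01e-05). AT4G17840 rose by 0.94 ± 0.21 in cry1 (limma adjusted p = 0.0079) and by 0.61 ± 0.21 in WT (limma adjusted p = 0.038). It was lower in cry1 than in WT in blue light and in the dark. CLH2 stood at 6.40, 8.81 and 7.46 TPM in cry1 blue, against 1.82, 1.61 and 1.99 TPM in cry1 dark. It stood at 9.49, 7.22 and 8.96 TPM in WT blue, against 7.65, 5.19 and 5.09 TPM in WT dark, so cry1 dark lay below all other groups. HCAR, which turns chlorophyll b back towards chlorophyll a, fell in WT by 0.99 ± 0.22 (limma adjusted p = 0.00465). Its difference in cry1 was -0.11 ± 0.22 (limma adjusted p = 0.8), and the difference between these responses, 0.88 ± 0.31, was not called (limma adjusted p = 0.089). In the dark HCAR was lower in cry1 than in WT by 1.14 ± 0.22 (limma adjusted p = 0.0036). The GATA factors GNC and CGA1, both known for roles in greening, rose in cry1 by 3.18 ± 0.24 and 4.03 ± 0.33 and in WT by 2.89 ± 0.24 and 3.76 ± 0.33, with limma adjusted p of 1.94e-06 and 3.4e-06 in cry1 and 3.67e-06 and 5.55e-06 in WT. GLK2, the partner of GLK1, rose by 3.87 ± 0.17 in cry1 (limma adjusted p = 2.61e-08) and by 3.06 ± 0.17 in WT (limma adjusted p = 1.84e-07).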
